A study of Mus musculus with 12 samples.

Results

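The 9 genes described here belong to the p53 pathway. They are Trp53, which encodes p53 itself, and 8 genes known as p53 targets, namely Mdm2, Cdkn1a, Ccng1, Plk2, Trp53inp1, Phlda3, Zmat3 and Eda2r. They were chosen by symbol from general knowledge of the pathway, by a rule that uses no measured value. Earlier results of these data were, however, known when they were chosen. All 9 were found among the 55335 genes listed, and all 9 were among the 14357 genes that passed the filter on low counts.

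The data are 12 bulk RNA-seq libraries from mouse BMDC, dendritic cells grown from bone marrow under the cytokine GM-CSF. The cells came from C57BL/6 mice with the genotype CreER, a tamoxifen-inducible Cre recombinase expressed from the Rosa26 locus, and their Ctcf gene was intact in every group. Cultures were kept for 6 days with fresh medium every 2 days, and floating CD11c+ cells were selected according to the methods of the study. The methods of the study describe its mice as young adults of both sexes, without an age for each library, and whether these cultures received tamoxifen was not clear from the labels. WT cells were unstimulated. WTL cells received lipopolysaccharide (LPS), a bacterial cell wall component sensed by dendritic cells, at 100 ng/ml for 3 h. WT + JSH23 cells received JSH-23, an inhibitor of the nuclear entry of the NF-κB subunit RelA, at 100 µM for 3 h. WTL + JSH23 cells received JSH-23 in this way before the same LPS stimulation. Each group held 3 libraries, numbered 4 to 6 in WT and WTL and 1 to 3 in both JSH-23 groups. The methods of the study call the replicates biological. No batch was given, and whether the groups without JSH-23 were given its solvent is not in the labels.

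p53 is a transcription factor that is held at a low level by Mdm2, a ubiquitin ligase that marks it for degradation, and Mdm2 is itself a p53 target, so that both form a feedback loop. Most control of p53 acts on the protein, which RNA-seq does not see. When p53 is stabilised by DNA damage or other stress it activates genes that halt the cell cycle, repair DNA, alter metabolism or lead to cell death. Several of these genes, Cdkn1a above all, are also switched on by other transcription factors in myeloid cells.

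Total expected counts per library ran from 24664724 to 34837847. The summed level of 8 dendritic cell markers lay between 12200 and 15800 CPM in every library, where CPM is a gene's count relative to a library size scaled with edgeR's TMM method. By group it ran from 12800 to 13000 CPM in WT and from 12200 to 12600 in WT + JSH23. It was highest in WTL, at 14900 to 15800 CPM, with 13300 to 14600 in WTL + JSH23. In WT these markers averaged from 8387 CPM for Cd74, the largest part of the sum, and 2060 for H2-Ab1 down to 61.4 for Zbtb46, 58.5 for Dpp4 and 6.24 for Flt3. Markers of B cells, T cells, NK cells, and mast cells and basophils were each below 1 CPM in sum. The 6 macrophage markers summed to between 1850 and 1960 CPM in WT, 1450 and 1500 in WT + JSH23, 1290 and 1400 in WTL, and 1180 and 1210 in WTL + JSH23. The dendritic cell and macrophage sums therefore both moved with the groups, and their part in the results was not tested. The 7 neutrophil markers lay between 37.8 and 58.4 CPM and were highest in WTL, with Ly6g at no more than 0.230 CPM. Of 3 stroma markers, Col1a1 and Col1a2 were at or near 0 in every library, with means of at most 0.0743 and 0.0288 CPM in any group, while Pdgfrb averaged 27.5 CPM in WTL, 11.5 in WTL + JSH23, 2.44 in WT and 1.27 in WT + JSH23. In bulk RNA from the selected CD11c+ cells, fewer cells that express a gene and less RNA per cell cannot be told apart.

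Promoter sequence was available for 7 of the 9 genes, as RefSeq windows of 300 bases on the build GRCm38.p6 that run from 250 bases before to 50 bases after each annotated start. Both strands were searched for the p53 decamer, the 10-base unit that occurs in tandem in p53 response elements, and for the 10-base κB site bound by NF-κB. The p53 decamer was present in 8.36% of all 32851 promoter windows, and 9.55% of 27025 genes had it in a window. It was found in windows of 4 of the 7 members, namely Trp53, Mdm2, Ccng1 and Cdkn1a, and of 9 of 36 other p53 pathway genes. Cdkn1a had 2 matches in its upstream window and none in its second window. The κB site was present in 8.46% of all windows and for 9.55% of genes. It was found for 1 member, Trp53, where it spanned the start, and for 4 of the 36 other genes. Plk2, Phlda3 and Eda2r held neither motif in their windows. No windows were used for Trp53inp1 and Zmat3. The stretches that carry the matches are shown because these are the promoters at which the members differ in these motifs. The matches are in capitals, and in Trp53 the first capitals are the p53 decamer and the second the κB site. All are printed on the strand of the gene. The Trp53 stretch lies at chr11:69580264-69580383, plus strand, and its matches begin at positions -75 and -5 from the start.
Trp53: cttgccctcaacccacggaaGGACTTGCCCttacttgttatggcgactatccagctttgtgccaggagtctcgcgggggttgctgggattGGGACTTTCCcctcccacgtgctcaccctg
The Cdkn1a stretch lies at chr17:29090886-29090957, plus strand, with p53 decamers that begin at positions -73 and -51.
Cdkn1a: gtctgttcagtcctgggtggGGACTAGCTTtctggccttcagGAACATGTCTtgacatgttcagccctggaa
The Mdm2 stretch lies at chr10:117710915-117710964, minus strand, and the Ccng1 stretch at chr11:40755442-40755491, minus strand, with decamers that begin at positions -186 and -185.
Mdm2: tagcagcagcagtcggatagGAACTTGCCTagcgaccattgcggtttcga
Ccng1: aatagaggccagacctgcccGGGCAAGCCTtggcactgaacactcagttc
A match describes the letters of the window, and no binding was measured in these libraries. Sequence outside the windows, further upstream or deeper in the gene, was not searched, so p53 sites there are not seen.

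On GRCm38, the GENCODE M21 annotation places Trp53 (ENSMUSG00000059552.13) at chr11:69580359-69591873 and Ccng1 (ENSMUSG00000020326.7) on the same chromosome at chr11:40748552-40755311. Cdkn1a (ENSMUSG00000023067.14) lies at chr17:29090976-29100727, Mdm2 (ENSMUSG00000020184.15) at chr10:117688875-117710758 and Plk2 (ENSMUSG00000021701.8) at chr13:110395046-110400844. Trp53inp1 (ENSMUSG00000028211.11) lies at chr4:11156431-11174379, Phlda3 (ENSMUSG00000041801.5) at chr1:135766119-135769136, Zmat3 (ENSMUSG00000027663.12) at chr3:32334792-32366014 and Eda2r (ENSMUSG00000034457.10) at chrX:97333840-97377216. Cdkn1a is the member whose exons overlap another gene, and the other 8 had whole-number expected counts in all 12 libraries.

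Between genes, levels were compared per transcript length in the TPM that the authors deposited, a share of all transcripts in a library. In WT, Cdkn1a was the most abundant member at 558 ± 9.43 TPM (SD, n = 3), followed by Mdm2 at 141 ± 4.61, Ccng1 at 85.6 ± 1.17, Plk2 at 61.8 ± 1.68 and Trp53 at 49.9 ± 1.11. Phlda3 at 18.2 ± 0.609 TPM, Trp53inp1 at 15.5 ± 0.375, Zmat3 at 3.36 ± 0.0557 and Eda2r at 1.33 ± 0.172 were the lowest. In WTL the order changed, with Cdkn1a at 1659 ± 18.8 TPM, Plk2 at 180 ± 5.15, Mdm2 at 158 ± 5.19, Ccng1 at 58.9 ± 1.76, Trp53 at 33.2 ± 1.66, Phlda3 at 9.22 ± 0.751, Trp53inp1 at 5.57 ± 0.492, Eda2r at 4.62 ± 0.410 and Zmat3 at 1.36 ± 0.201. Across the 12 libraries, log2 CPM spanned 2.97 for Plk2, 2.86 for Eda2r and 2.40 for Cdkn1a, and only 0.41 for Ccng1 and 0.29 for Trp53.

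**Figure D1:**
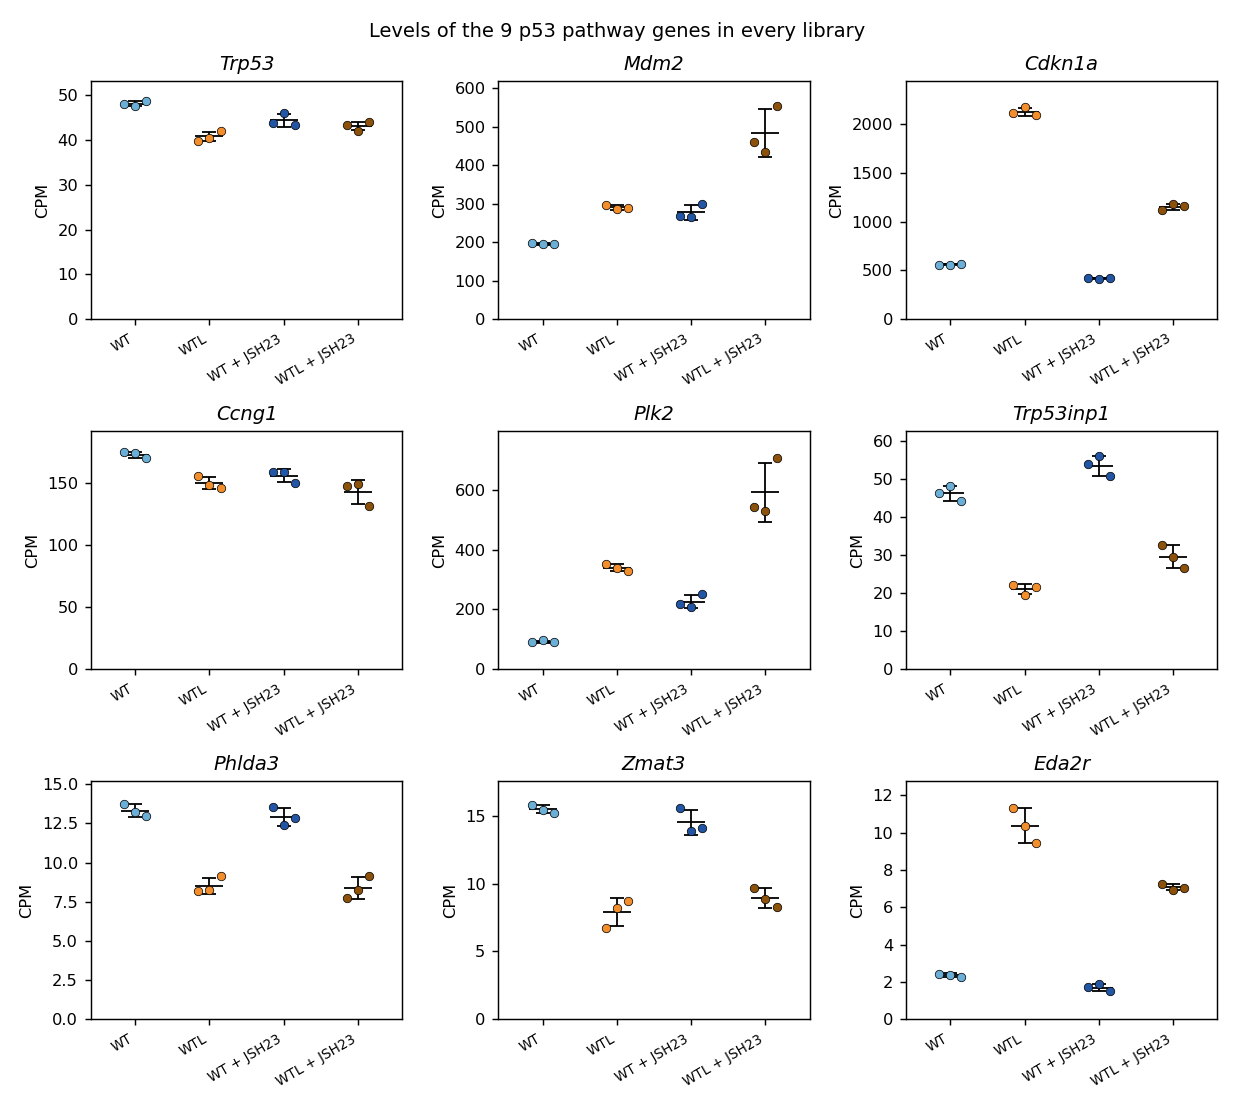
Level of each of the 9 genes (CPM, linear axes from 0) in WT, WTL, WT + JSH23 and WTL + JSH23, with a point per library and bars for the mean and SD over 3 libraries. Cdkn1a, Plk2 and Eda2r separate the LPS groups from the unstimulated groups upwards, Trp53inp1, Phlda3 and Zmat3 downwards, and Trp53 and Ccng1 vary little.

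The first question was how the members responded to LPS in the absence of inhibitor. In WTL against WT, 4 members were higher (Cdkn1a, Plk2, Eda2r and Mdm2) and 5 were lower (Trp53inp1, Zmat3, Phlda3, Trp53 and Ccng1) at an adjusted p under 0.05. Of all genes, 31% were called higher and 34.7% lower, or 65.7% in all, so that passing the threshold says little by itself. The members did not move in a single direction. With a change of more than 2-fold required as well, 3 members were higher (7.36% of all genes) and 1 was lower (9.09%). The median log2 fold change was -0.21 over the members and -0.05 over all genes. The libraries of both groups did not overlap for any of the 9 genes, as for 69.9% of all genes tested.

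The regulators are described first. Trp53 stood at 48.1, 47.5 and 48.8 CPM in WT, 39.9, 40.6 and 42.0 in WTL, 43.8, 46.1 and 43.4 in WT + JSH23, and 43.3, 42.1 and 44.0 in WTL + JSH23. WT was the highest group and WTL the lowest, and both JSH-23 groups lay between them and overlapped. On the CPM scale LPS lowered Trp53 by a small amount in the absence of JSH-23 (log2 fold change -0.24, SE 0.0443, adjusted p = 7.08e-05), a level of 0.847 times that of WT. On log2(TPM + 1) that fall was larger, at -0.57, or -0.31 relative to the median of all genes tested, against -0.19 on the CPM scale. With JSH-23 the LPS change on the CPM scale was -0.04 (SE 0.0446, adjusted p = 0.454), which did not pass, although it passed with upper quartile scaling (-0.13, adjusted p = 0.0213) and on log2(TPM + 1) (-0.24, adjusted p = 0.000596). JSH-23 alone lowered Trp53 by 0.12 on the log2 scale (SE 0.0433, adjusted p = 0.0359). That call was lost when WT + JSH23 replicate 1 (adjusted p = 0.112) or 3 (0.135), or WT replicate 4 (0.0788), 5 (0.0527) or 6 (0.105), was left out, and also with upper quartile scaling (0.0728), without the filter (0.116), in DESeq2 (0.0769) and in a fit of only the libraries compared (0.0821).

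Mdm2, the inhibitor of p53, stood at 197, 195 and 194 CPM in WT, 298, 285 and 288 in WTL, 267, 266 and 298 in WT + JSH23, and 460.2, 435 and 554 in WTL + JSH23. WT was lowest, WTL + JSH23 was highest, and WTL and WT + JSH23 overlapped in between and did not differ beyond their spread on the CPM scale (log2 difference 0.07, SE 0.0632, adjusted p = 0.348). On log2(TPM + 1) that difference turned and passed, with WTL against WT + JSH23 at -0.32 (adjusted p = 0.00138). Each treatment alone raised Mdm2, with a log2 fold change of 0.57 for LPS (SE 0.0637, adjusted p = 7.99e-08) and of 0.51 for JSH-23 (SE 0.0636, adjusted p = 1.17e-06). LPS in the presence of JSH-23 raised it by 0.80 (SE 0.0630, adjusted p = 5.42e-10), and both treatments together raised it 2.47-fold over WT (adjusted p = 1.11e-13). The LPS change without JSH-23 depended on the unit. On log2(TPM + 1) it was 0.16 and did not pass (adjusted p = 0.0555), on a scale where the median of all genes tested was -0.26, and relative to that median Mdm2 was higher by 0.42, against 0.62 on the CPM scale. WTL + JSH23 replicate 3 was the highest library for Mdm2 and also for Plk2.

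As a ratio of TPM within each library, Mdm2 to Trp53 was 2.82 ± 0.117 in WT, 4.75 ± 0.157 in WTL, 4.41 ± 0.271 in WT + JSH23 and 7.72 ± 1.06 in WTL + JSH23 (SD, n = 3). The ratio was higher in every treated library than in any WT library.

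The cell cycle members followed. Cdkn1a encodes p21, an inhibitor of cyclin-dependent kinases. It stood at 555, 559 and 567 CPM in WT, 2118, 2174 and 2096 in WTL, 418, 412 and 425 in WT + JSH23, and 1119.7, 1177 and 1162 in WTL + JSH23. No groups overlapped, and the order was WTL, WTL + JSH23, WT and WT + JSH23, with each neighbouring pair past the threshold. LPS raised Cdkn1a 3.80-fold without JSH-23 (log2 fold change 1.93, SE 0.0346, adjusted p = 6.18e-21) and 2.76-fold with it (1.46, SE 0.0344, adjusted p = 8.99e-19). JSH-23 lowered it under LPS by 0.89 on the log2 scale (SE 0.0336, adjusted p = 8.37e-15) and at rest by 0.42 (SE 0.0339, adjusted p = 1.35e-09). The exons of Cdkn1a overlap those of AC167363.2, an unclassified transcript on the other strand, and its expected counts were fractional in all 12 libraries. AC167363.2 held between 0.462% and 1.12% of the counts of both genes in a library.

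Plk2, a polo-like kinase that acts at the entry into S phase and is also known as a gene induced by serum and stress, stood at 90.2, 96.3 and 90.9 CPM in WT, 352, 340 and 329 in WTL, 217, 209 and 251 in WT + JSH23, and 542, 528 and 706 in WTL + JSH23. Again no groups overlapped, but the order differed from that of Cdkn1a, since the JSH-23 groups were above their counterparts without inhibitor. LPS raised Plk2 3.68-fold (log2 fold change 1.88, SE 0.0839, adjusted p = 2.32e-14), and JSH-23 alone raised it 2.44-fold (1.29, SE 0.0834, adjusted p = 4.76e-11). Both together raised it 6.40-fold over WT (2.68, SE 0.0852, adjusted p = 8.95e-17). Under LPS, JSH-23 added 0.80 on the log2 scale (SE 0.0792, adjusted p = 2.78e-08).

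The opposite response of these genes to JSH-23 was visible in their ratio. Plk2 to Cdkn1a, as a ratio of TPM, was 0.111 ± 0.00452 in WT and 0.108 ± 0.00422 in WTL, and 0.367 ± 0.0324 in WT + JSH23 and 0.350 ± 0.0570 in WTL + JSH23 (SD, n = 3). It thus separated libraries by JSH-23 and not by LPS, with the ranges of the LPS pairs overlapping. Cdkn1a to Mdm2 was 3.97 ± 0.182 in WT, 10.53 ± 0.391 in WTL, 2.10 ± 0.0924 in WT + JSH23 and 3.40 ± 0.449 in WTL + JSH23, so that WTL stood above all other groups.

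**Figure D2:**
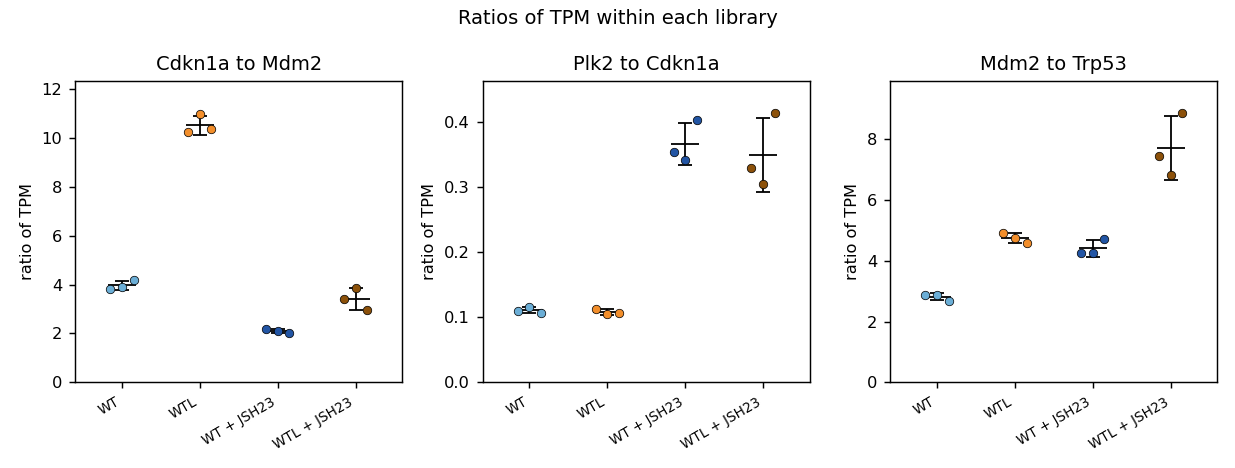
Ratio of TPM between pairs of genes within each library (Cdkn1a to Mdm2, Plk2 to Cdkn1a and Mdm2 to Trp53, linear axes from 0), with a point per library and bars for the mean and SD over 3 libraries. The Plk2 to Cdkn1a ratio is near 0.11 without JSH-23 and above 0.30 in every library with it, while Cdkn1a to Mdm2 is above 10 only in WTL.

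Ccng1 encodes cyclin G1, which recruits a phosphatase to Mdm2. It stood at 174, 174 and 169.96 CPM in WT, 155, 148 and 146 in WTL, 159, 159 and 150.2 in WT + JSH23, and 147, 149 and 131 in WTL + JSH23. WT was above every other library, and the remaining groups overlapped or were adjacent. Its changes were small on the CPM scale, with log2 fold changes of -0.21 for LPS (SE 0.0452, adjusted p = 0.000424), -0.15 for JSH-23 (SE 0.0449, adjusted p = 0.0109) and -0.13 for LPS with JSH-23 (SE 0.0455, adjusted p = 0.0227). The last did not pass without WTL + JSH23 replicate 3 (adjusted p = 0.144), without WT + JSH23 replicate 1 (0.0792) or 2 (0.0723), or in a fit of only the libraries compared (0.0588). Leaving out WT + JSH23 replicate 3 ended the call with JSH-23 alone (0.0689), as did log2(TPM + 0.1) (0.0520). On log2(TPM + 1) the Ccng1 change with LPS alone was larger, at -0.53, or -0.27 relative to the median of all genes tested, against -0.16 on the CPM scale.

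The members linked to cell death and survival split again. Trp53inp1, a stress-induced protein that promotes autophagy and apoptosis, stood at 46.4, 48.0 and 44.1 CPM in WT, 22.01, 19.5 and 21.7 in WTL, 53.8, 55.9 and 50.7 in WT + JSH23, and 32.6, 29.4 and 26.5 in WTL + JSH23. No groups overlapped. LPS lowered it to 0.455 of the WT level (log2 fold change -1.14, SE 0.0675, adjusted p = 3.12e-12) and with JSH-23 to 0.554 of the level in WT + JSH23 (-0.85, SE 0.0643, adjusted p = 2.81e-10). JSH-23 raised it under LPS by 0.49 (SE 0.0717, adjusted p = 6.28e-06) and at rest by 0.21 (SE 0.0603, adjusted p = 0.00763). The rise at rest did not pass on log2(TPM + 1), where it was 0.18 (adjusted p = 0.126).

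Phlda3, which restrains Akt signalling, stood at 13.8, 13.2 and 13.0 CPM in WT, 8.21, 8.27 and 9.12 in WTL, 13.5, 12.4 and 12.9 in WT + JSH23, and 7.76, 8.28 and 9.12 in WTL + JSH23. The libraries fell into a higher set without LPS and a lower set with it, and within each set the groups overlapped. LPS lowered Phlda3 by 0.65 without JSH-23 (SE 0.0766, adjusted p = 1.99e-07) and by 0.63 with it (SE 0.0778, adjusted p = 5.92e-07). JSH-23 changed it by -0.04 at rest (adjusted p = 0.674) and by -0.03 under LPS (adjusted p = 0.835), neither past the threshold.

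Zmat3, an RNA-binding zinc finger protein, stood at 15.8, 15.4 and 15.2 CPM in WT, 6.74, 8.17 and 8.75 in WTL, 15.6, 13.9 and 14.1 in WT + JSH23, and 9.71, 8.83 and 8.30 in WTL + JSH23. As for Phlda3, libraries with LPS were lower and groups that differed only in JSH-23 overlapped. LPS lowered Zmat3 by 0.98 without JSH-23 (SE 0.0864, adjusted p = 2.33e-09) and by 0.69 with it (SE 0.0859, adjusted p = 6.19e-07). The change with JSH-23 was -0.09 at rest (SE 0.0773, adjusted p = 0.375) and 0.19 under LPS (SE 0.0957, adjusted p = 0.107). The latter passed on log2(TPM + 1) (0.45, adjusted p = 0.00198) and when WTL replicate 6 was left out (0.26, adjusted p = 0.0447).

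Eda2r, a receptor of the tumour necrosis factor receptor family, was the member with the lowest TPM in WT. It stood at 2.45, 2.39 and 2.28 CPM in WT, 11.3, 10.4 and 9.44 in WTL, 1.72, 1.88 and 1.497 in WT + JSH23, and 7.26, 6.92 and 7.04 in WTL + JSH23, on 44 to 311 counts per library. No groups overlapped, and their order was that of Cdkn1a. LPS raised Eda2r 4.37-fold without JSH-23 (log2 fold change 2.13, SE 0.108, adjusted p = 1.94e-13) and 4.16-fold with it (2.06, SE 0.122, adjusted p = 4.75e-12). JSH-23 lowered it under LPS by 0.55 (SE 0.0949, adjusted p = 4.96e-05) and at rest by 0.48 (SE 0.140, adjusted p = 0.00825). The fall at rest was no longer called when WT + JSH23 replicate 3 was left out (-0.40, adjusted p = 0.0516) or on log2(TPM + 1) (-0.27, adjusted p = 0.0581).

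The comparison of WTL + JSH23 with WT + JSH23 asked which responses to LPS were seen in the presence of the inhibitor. There, 4 members were higher (27.4% of all genes) and 4 were lower (27.1%), with 54.5% of all genes called, and Trp53 did not pass. More than 2-fold changes were found for 3 members, all higher (5.85% of all genes, and 4.49% were lower by that much), namely Cdkn1a, Plk2 and Eda2r. The median was -0.04 over the members and -0.02 over all genes. The groups did not overlap for 8 of the 9 genes, and for 59.1% of all genes.

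The effect of JSH-23 was measured under LPS and at rest. In WTL + JSH23 against WTL, 3 members were higher (Plk2, Mdm2 and Trp53inp1) and 2 were lower (Cdkn1a and Eda2r). Of all genes, 24.5% were higher and 24.2% lower, or 48.7% in all, and the groups did not overlap for 6 members and for 54.8% of all genes. The other 4 members did not pass, and none changed by more than 2-fold, against 3.75% of all genes upwards and 3.25% downwards. On log2(TPM + 1) the split was 5 higher and 2 lower, Trp53 and Zmat3 having been added. In WT + JSH23 against WT, 3 members were higher (Plk2, Mdm2 and Trp53inp1) and 4 were lower (Cdkn1a, Eda2r, Ccng1 and Trp53), against 18.8% of all genes higher and 22.1% lower, or 41% in all. Plk2 alone exceeded 2-fold (2.43% of all genes higher by that much and 2.94% lower), and the groups did not overlap for 7 members and for 51.5% of all genes. The number of members called fell from 7 to 4 when WT + JSH23 replicate 3 was left out. These comparisons share libraries with those of LPS, as WTL and WT enter each, so their values are given side by side and not as separate evidence.

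**Figure D3:**
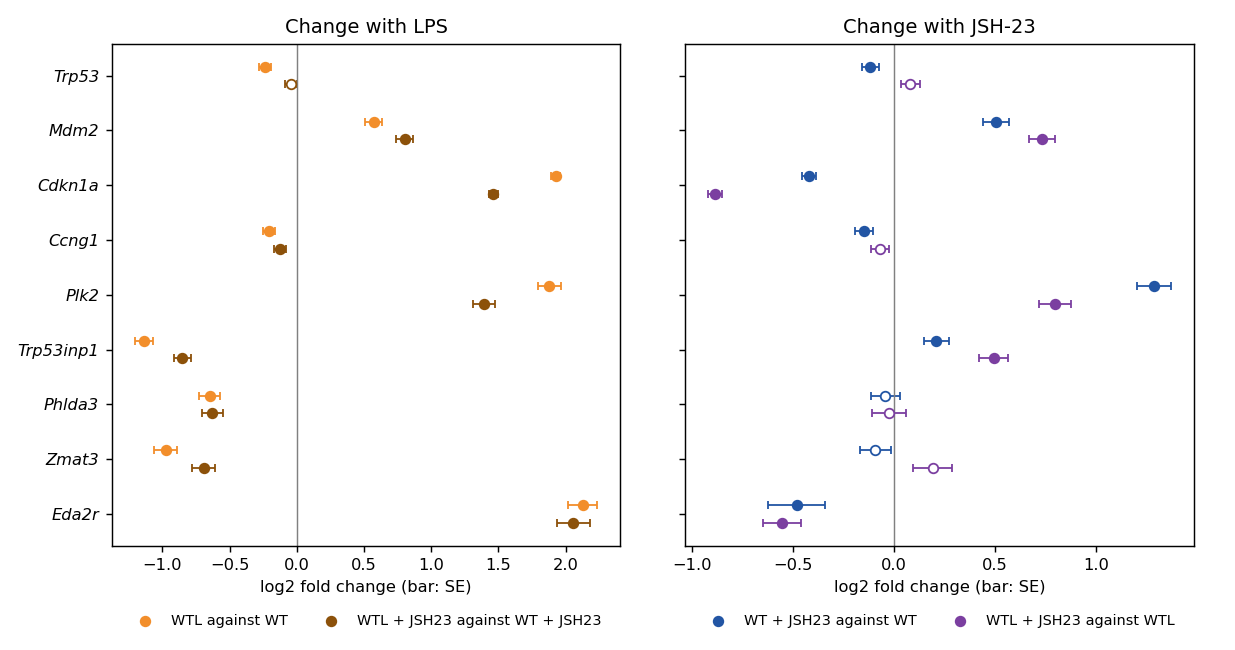
Log2 fold change of the 9 genes with LPS (left, without and with JSH-23) and with JSH-23 (right, at rest and under LPS), with bars for the SE from the edgeR fit to 12 libraries and filled points at an adjusted p under 0.05. Mdm2 and Plk2 lie to the right of 0 in both panels, whereas Cdkn1a and Eda2r lie to the right with LPS and to the left with JSH-23.

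With both treatments combined, in WTL + JSH23 against WT, 4 members were higher (30.7% of all genes) and 5 were lower (31.4%), and 62.1% of all genes were called. Each of the 4 higher members exceeded 2-fold (7.29% of all genes did so upwards), with Plk2 at 6.40-fold, Eda2r at 2.98-fold, Mdm2 at 2.47-fold and Cdkn1a at 2.06-fold. None of the 5 lower members did (7.79% of all genes downwards), and they ran from -0.79 for Zmat3 to -0.16 for Trp53 on the log2 scale. WTL was also set against WT + JSH23 to order the group levels, where 3 members were higher (32.3% of all genes), 4 were lower (35.8%) and 68% of all genes were called, with 9.41% higher and 10.4% lower by more than 2-fold. Among the other p53 pathway genes described further on, the largest changes there were those of Rprm (2.46), Apaf1 (1.32) and Dram1 (1.05) upwards and Chek2 (-1.83), Xpc (-1.52) and Sfn (-1.42) downwards.

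Whether the LPS response itself depended on JSH-23 was tested by the interaction, the log2 fold change of LPS in JSH-23-treated cells less that in cells without inhibitor. It passed for 4 of the 9 members, against 18% of all genes, with 2 positive (9.54% of all genes) and 2 negative (8.44%). None exceeded 2-fold, against 0.933% of all genes upwards and 0.404% downwards. Cdkn1a had a smaller rise with JSH-23 (interaction -0.46, SE 0.0476, adjusted p = 1.13e-06), as did Plk2 (-0.49, SE 0.114, adjusted p = 0.00495). Trp53inp1 had a smaller fall (0.28, SE 0.0937, adjusted p = 0.0399), as did Trp53 (0.20, SE 0.0629, adjusted p = 0.0334). The median interaction was 0.08 over the members and 0.03 over all genes. The Cdkn1a call was kept in all 20 alternatives run. The Plk2 call was kept when any library was left out and lost on log2(TPM + 1) (-0.37, adjusted p = 0.0789).

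The calls of Trp53 and Trp53inp1 in the interaction were close to the threshold. They were lost in 8 and 7, respectively, of the 12 fits that each left out a library. For Trp53 the adjusted p rose to between 0.0501 and 0.0845 without WTL + JSH23 replicate 1 or 3, WT + JSH23 replicate 1 or 3, WTL replicate 4 or 5, or WT replicate 4 or 6, with the interaction between 0.18 and 0.20. For Trp53inp1 it rose to between 0.0560 and 0.147 without WTL + JSH23 replicate 1 or 2, WT + JSH23 replicate 1 or 3, WTL replicate 5, or WT replicate 4 or 5, with the interaction between 0.21 and 0.29. The Mdm2 interaction was 0.23 (SE 0.0893, adjusted p = 0.0833) and did not pass, but it passed when WTL + JSH23 replicate 2 (0.30, adjusted p = 0.0144) or WT + JSH23 replicate 3 (0.28, adjusted p = 0.0378) was left out, without the filter on low counts (0.23, adjusted p = 0.00329) and on log2(TPM + 1) (0.39, adjusted p = 0.0258). It also passed in an edgeR fit with the replicate number as a block (0.22, adjusted p = 0.00417). With the size factors of DESeq2, and in DESeq2 itself, 2 members passed, both with a smaller rise on the log2 scale. On log2(TPM + 1) 5 passed, 4 of them positive. Ccng1 (0.08), Phlda3 (0.02), Zmat3 (0.28, adjusted p = 0.121) and Eda2r (-0.07, adjusted p = 0.831) did not pass.

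Genes with a pattern like that of Cdkn1a and Trp53 were sought by the root mean square difference of centred log2 CPM over the 12 libraries, among 7697 protein-coding genes with a mean of at least 10 CPM. Closest to Cdkn1a were Marcksl1 (0.0767), Peli1 (0.0933) and Lcp2 (0.101). Closest to Trp53 were Polr2a (0.0226), Smarcc2 (0.0278) and Clptm1 (0.0346). These differences describe likeness over 4 group means and their spread only.

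Beyond the 9 members, a list of 45 other p53 pathway genes was examined, of which 43 were tested. The p53 relatives Trp63 and Trp73 were not, with no more than 1 and 2 counts in any library. In WTL against WT, 16 were higher and 17 lower, beside 31% and 34.7% of all genes, with a median of 0.06 against -0.05 over all genes. On log2(TPM + 1) the split was 8 higher and 18 lower. By role, the 6 genes listed under cell cycle arrest had 4 higher and 1 lower, the latter being Gtse1 (-0.51). The 10 death genes had 3 higher and 4 lower, and the 5 DNA repair and nucleotide supply genes none higher and 4 lower. The 9 metabolism and stress genes had 5 higher and 2 lower, and the 13 tested regulators and relatives 4 higher and 6 lower.

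The largest rises with LPS in this list were those of Gdf15, Rprm and Plk3. Gdf15, a stress-induced cytokine, stood at 1.22, 1.45 and 2.24 CPM in WT and 11.7, 12.5 and 12.9 in WTL (log2 fold change 2.94, SE 0.319, adjusted p = 5.77e-08). Rprm, a mediator of arrest before mitosis, was at 0.520, 0.600 and 0.690 CPM in WT and 2.56, 2.27 and 1.43 in WTL (1.80, SE 0.273, adjusted p = 6.16e-06). Plk3, a stress-responsive kinase whose exons overlap Tctex1d4, was at 5.81, 6.23 and 5.73 CPM in WT and 15.3, 13.3 and 15.6 in WTL (1.31, SE 0.0870, adjusted p = 2.12e-11).

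Sesn1, Chek2 and Xpc fell the most. Sesn1, a stress protein that restrains mTORC1, was at 10.4, 13.0 and 9.49 CPM in WT and 3.02, 2.93 and 3.13 in WTL (-1.86, SE 0.123, adjusted p = 1.91e-11). Chek2, a kinase that phosphorylates p53 after DNA damage, had a log2 fold change of -1.79 (adjusted p = 1.98e-07), and Xpc, a sensor of DNA lesions in nucleotide excision repair, one of -1.18 (adjusted p = 3.05e-09). Among the death genes, Pmaip1, which encodes the BH3-only protein Noxa, fell from between 129 and 144 CPM in WT to between 62.1 and 70.1 in WTL (-1.05, adjusted p = 7.25e-14).

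With JSH-23 at rest, 11 of the 43 genes were higher and 12 lower, beside 18.8% and 22.1% of all genes. The median was -0.06 against -0.01 over all genes, and the largest rises were those of Gdf15, Sfn and Gls2. Gdf15 rose to 23.6, 22.8 and 32.9 CPM in WT + JSH23 (log2 fold change 4.03, SE 0.278, adjusted p = 1.2e-10). Sfn, which encodes the cell cycle protein 14-3-3 sigma, rose from 7.52, 7.63 and 8.35 CPM in WT to 21.3, 20.7 and 23.6 in WT + JSH23 (1.48, SE 0.109, adjusted p = 3.29e-10). Gls2, a mitochondrial glutaminase, rose from 3.39, 2.25 and 3.66 CPM to 7.44, 7.74 and 8.44 (1.36, SE 0.138, adjusted p = 5.15e-08), with exons that overlap Spryd4. The genes that fell most were Gtse1 (-0.66), the noncoding RNA Trp53cor1 (-0.58) and the DNA damage kinase Atm (-0.55). The exons of Trp53cor1 overlap AC167363.1 and Gm27599, and its expected counts were fractional in 8 libraries.

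Under LPS, JSH-23 gave 13 higher and 11 lower genes, beside 24.5% and 24.2% of all genes, and on log2(TPM + 1) 14 higher and 6 lower. Gdf15 stood at 94.8, 92.8 and 161 CPM in WTL + JSH23, the last being replicate 3, so that it was 9.36-fold above WTL and 71.7-fold above WT. Gls2 (log2 fold change 1.70) and Sfn (1.34) were again the next largest rises, and Btg2, an antiproliferative gene, had the largest fall (-0.95, SE 0.0491, adjusted p = 9.54e-13), from between 57.2 and 60.7 CPM in WTL to between 29.0 and 31.9 in WTL + JSH23. Rprm (-0.82, adjusted p = 0.0112), which did not pass when WTL + JSH23 replicate 2 (0.0590) or WTL replicate 4 (0.0733) was left out, and Gtse1 (-0.69, adjusted p = 0.000626) were also lower. In WTL + JSH23 against WT + JSH23, 13 genes were higher and 11 lower, beside 27.4% and 27.1% of all genes, and on log2(TPM + 1) 9 were higher and 17 lower. The largest changes there were 2.13 for Gdf15, 1.65 for Ddit4 and 1.64 for Rprm, and -1.22 for Chek2, -0.87 for Pidd1 and -0.80 for Pmaip1.

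**Figure D4:**
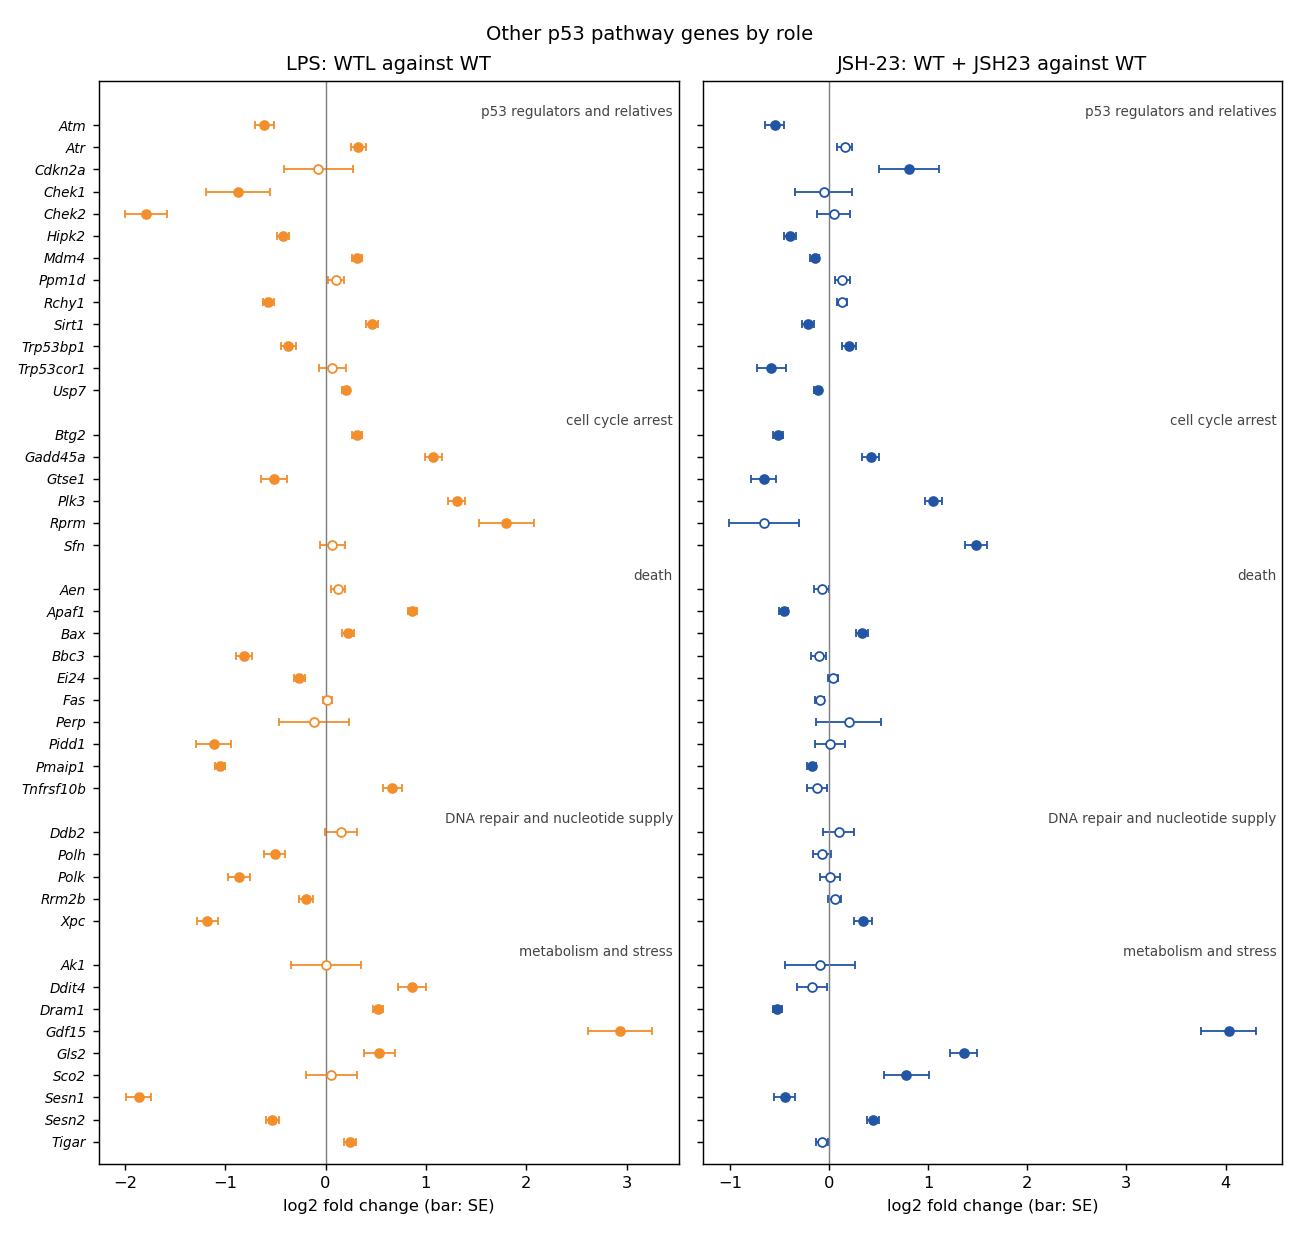
Log2 fold change of 43 other p53 pathway genes, grouped by role, in WTL against WT (left) and in WT + JSH23 against WT (right, on its own axis range), with bars for the SE and filled points at an adjusted p under 0.05. Gdf15 is the largest rise in both panels, and each role other than DNA repair and nucleotide supply holds called genes on both sides of 0 in both panels.

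The interaction passed for 10 of the 43 genes, 8 positive and 2 negative, beside 18% of all genes, 9.54% positive and 8.44% negative. The largest positive values were those of Sesn1 (1.13, SE 0.175, adjusted p = 0.000122), Ddit4 (0.79, adjusted p = 0.00732) and Xpc (0.68, adjusted p = 0.00194), and Sesn1 stood at 7.96, 7.78 and 8.41 CPM in WT + JSH23 and 5.32, 4.26 and 4.88 in WTL + JSH23, a narrower gap than between WT and WTL. The negative interactions were those of Plk3 (-0.89, SE 0.118, adjusted p = 1.91e-05), at 11.2, 12.9 and 12.8 CPM in WT + JSH23 and 15.9, 15.8 and 17.5 in WTL + JSH23, and Btg2 (-0.43, SE 0.0686, adjusted p = 0.000147). Of the other genes that were named, Gdf15 did not pass (-0.80, adjusted p = 0.169). It passed without the filter on low counts (-0.80, adjusted p = 2.29e-07) and when WTL + JSH23 replicate 3 was left out (-1.11, adjusted p = 0.000928). The Gdf15 interaction also passed in an edgeR fit with the replicate number as a block (-0.82, adjusted p = 0.000842). In WTL + JSH23 against WT, 14 genes were higher and 15 lower, beside 30.7% and 31.4% of all genes, led by Gdf15, Gls2 (2.24) and Ddit4 (1.49) upwards and by Gtse1 (-1.20), Sesn1 (-1.19) and Chek2 (-1.17) downwards.

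p21, the product of Cdkn1a, is known to lead to repression of cell cycle genes through the DREAM complex, and 13 such genes were examined beside it. In WTL against WT, 1 was higher (Mki67) and 10 were lower, beside 31% and 34.7% of all genes, with a median log2 fold change of -0.81 against -0.05 over all genes. Ccnb2 and Cdc25c did not pass. That median was the value of Cdc25c, which averaged 0.50 CPM in WT on 3 to 22 counts per library. In WT + JSH23 against WT, none was higher and 10 were lower, beside 18.8% and 22.1% of all genes, with a median of -0.83 against -0.01. E2f1 (0.11), Mcm5 and Cdc25c did not pass there. In WTL + JSH23 against WT + JSH23, 1 was higher (Mki67) and 12 were lower, beside 27.4% and 27.1% of all genes, with a median of -0.74 against -0.02. In WTL + JSH23 against WTL, 1 was higher (E2f1) and 9 were lower, beside 24.5% and 24.2% of all genes, with a median of -0.65 against 0.02. With both treatments against WT, 1 was higher (Mki67) and 12 were lower, beside 30.7% and 31.4% of all genes, with a median of -1.47 against -0.01. The interaction passed for 3 (Ccnb1, E2f1 and Mki67), all positive, beside 9.54% of all genes in that direction. No test related these genes to Cdkn1a.

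Examples were chosen after their values were seen. Ccna2, which encodes cyclin A2, was at 8.13, 10.9 and 10.9 CPM in WT, 3.68, 3.57 and 2.95 in WTL, 4.43, 4.34 and 4.66 in WT + JSH23, and 1.98, 1.55 and 1.38 in WTL + JSH23. Its exons overlap Exosc9, and its expected counts were fractional in all 12 libraries. Plk1, a mitotic kinase, was at 5.08, 4.81 and 5.28 CPM in WT and 1.78, 1.40 and 1.75 in WTL, with exons that overlap Gm44985. Mki67, which encodes the proliferation marker Ki-67, was the exception. It rose from 85.1, 86.6 and 87.8 CPM in WT to 599.9, 559 and 579.9 in WTL (log2 fold change 2.74, SE 0.0420, adjusted p = 4.89e-22) and was 0.83 lower on the log2 scale in WT + JSH23 than in WT (adjusted p = 2.07e-12).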

How the data were processed

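Reads were trimmed with Trim Galore, aligned to mm10 with STAR (2.6.0c in the submitters' processing notes) and quantified per gene with RSEM by the authors. The deposited expected counts are unnormalized and divide reads that match several genes. TPM was deposited by the authors from those counts and effective lengths. The labels name rRNA depletion and the methods of the study a strand-specific poly(A) kit. The annotation release is not given in the sources used here. Symbols and positions were taken from GENCODE M21 (GRCm38), which matched 55154 of 55335 identifiers.

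Expected counts were rounded and fitted with edgeR 4.0.16 (R 4.3.3, filterByExpr, TMM, quasi-likelihood F-test) over all 12 libraries with a mean per group and 8 residual degrees of freedom. P values were adjusted by Benjamini-Hochberg over 14357 genes, and calls used an adjusted p under 0.05. Adjusted p values are from edgeR unless stated. SE is the absolute log2 fold change divided by the square root of F. The fit was tested on simulated counts. Alternatives were DESeq2 1.42.0, other scalings and filters, limma 3.58.1 on log2(TPM + 1) and log2(TPM + 0.1), a replicate block, a fit of only the libraries compared, and leaving out each library.

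The members and lists were chosen with earlier results of these data known, and no list was tested as a set. From the other p53 pathway genes, up to 3 rises and 3 falls per comparison were named, by size, among called genes whose libraries did not overlap (not asked for the interaction) and whose higher group averaged 1 CPM or more. A further 5 genes (Pmaip1 in WTL against WT, Mki67, Ccna2, Plk1 and E2f1) were named after their values were seen. RefSeq promoter windows held 7 of the 9 members.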

Additional observations from a re-analysis of the deposited data

Results flagged for a closer look

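These genes had an LPS change that differed by JSH-23 treatment, by the interaction term of edgeR, which tests the difference itself. The LPS change was smaller with JSH-23 for Cdkn1a (1.46 against 1.93, interaction -0.46), Plk2 (1.39 against 1.88, -0.49), Plk3 (0.41 against 1.31, -0.89), and smaller in size for Trp53inp1 (-0.85 against -1.14, 0.28), Trp53 (-0.04 against -0.24, 0.20), Sesn1 (-0.74 against -1.86, 1.13) and Xpc (-0.49 against -1.18, 0.68). It was larger with JSH-23 for Ddit4 (1.65 against 0.86, 0.79) and Mki67 (2.94 against 2.74, 0.19). For Btg2 the values were -0.12 in treated and 0.31 in untreated cells (-0.43). Of these the first did not pass in the main fit (adjusted p = 0.0524) and the second turned to -0.02 on log2(TPM + 1). The first passed with upper quartile scaling (-0.20, adjusted p = 0.00234) and with a minimum mean of 1 CPM (-0.12, 0.0421). It also passed without WTL + JSH23 replicate 2 (-0.16, 0.0230) and in limma on log2(TPM + 1) (-0.31, 0.000524) and log2(TPM + 0.1) (-0.32, 0.000483). All values are log2 fold changes, and the Trp53, Trp53inp1 and Mki67 calls were lost when single libraries were left out.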

How the results depend on the processing

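For the 9 members, 1278 alternative values were computed over all comparisons, of which 1208 kept direction and call, 49 lost the call, 19 gained it and 2 reversed. The reversed values were those of Mdm2 in WTL against WT + JSH23 on log2(TPM + 1) and log2(TPM + 0.1), -0.3193 and -0.3209 (adjusted p = 0.00138 and 0.00129) against 0.07. Of 2840 alternative values of the other named genes, 2741 kept both, and 4 reversed on the same scales, with Btg2 in WTL against WT at -0.0184 and -0.0190 and Plk3 in WTL against WT + JSH23 at -0.0582 and -0.0642. TPM scaling moved the median of all genes in WTL against WT + JSH23 to -0.26, and the cause of the reversals was not tested. Among 426 counts of called genes in the lists, 414 stayed within 1.5 times. Members called in the interaction were 4, and 2 with the size factors of DESeq2 in edgeR and 2 in DESeq2. DREAM genes called in the interaction were 3, and 1 on log2(TPM + 0.1). When a library was left out, the members called ranged from 4 to 7 in WT + JSH23 against WT (4 without WT + JSH23 replicate 3) and from 2 to 4 in the interaction (2 without WTL + JSH23 replicate 1, WT + JSH23 replicate 1, WTL replicate 5 or WT replicate 4). DREAM genes in the interaction ranged from 1 to 4 (1 without WTL + JSH23 replicate 2, WT + JSH23 replicate 1 or 3, or WT replicate 6). In WTL against WT + JSH23, log2(TPM + 1) gave 8 higher and 22 lower other genes, against 16 and 19.

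Whether replicate numbers pair the libraries was not settled. Libraries of the same number correlated at between 0.0142 and 0.0614 after removal of group means, and others at between -0.0564 and 0.0355. Of the 6 libraries without LPS, 5 correlated best with their own number. With the replicate block, 9539 genes were called in WTL against WT (9437 without), 7960 in WTL + JSH23 against WT + JSH23 (7828) and 2968 in the interaction (2582). Members called were 9, 8 and 5, the last including Mdm2 (0.22, adjusted p = 0.00417), other genes 33, 25 and 13, the last including Gdf15 (-0.82, adjusted p = 0.000842), and DREAM genes 11, 13 and 3. Eda2r, with 44 to 311 counts per library, and Rprm, with 6 to 68, rested on few reads.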
